A study of Mus musculus with 32 samples.

Results

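Genes of the endoplasmic reticulum (ER) folding machinery were followed across 32 mouse two-colour microarrays. The 10 members were Hspa5, Hsp90b1, Pdia4, Pdia6, Sdf2l1, Dnajb9, Edem1, Sel1l, Herpud1 and Creld2. They were found by the gene names in the scanner files, and every probe with 1 of these symbols was taken. All 10 were found, with 12 probes, among 35019 gene names on the array and 21419 names that passed the filter on dim probes in the arrays hybridised against the RNA pool. Pdia6 and Dnajb9 have 2 probes each and the other genes 1. The brightest probe stands for the gene unless the second is named.

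The arrays cover B cell lymphomas from mice without ATM, a kinase of the DNA damage response, and without CD3epsilon, a chain of the T cell receptor complex. From spleen came 9 ATMKO.CD3epsilonKO lymphoma lines (1001, 1004, 1007, 1010, 1013, 1016, 1019, 1036 and 1039; 12 arrays), which were set beside normal B cells. These were germinal centre (GC) B cells of ATMWT mice immunised with sheep red blood cells (3 arrays, averaged to 1 sample), and splenic B cells of ATMKO.CD3epsilonKO and ATMWT.CD3epsilonKO mice (9 arrays, 6 samples). The splenic cells were untreated (1 ATMWT and 1 ATMKO sample) or given anti-IgM, an antibody that crosslinks the B cell receptor, at 15 ug/ml. There was 1 anti-IgM sample each of ATMKO cells after 3, 6 and 24 h, and 1 of ATMWT cells after 6 h. The titles of the 6 h ATMKO arrays and 1 other field of their labels disagree on the time, and the titles were followed. On these 24 arrays the sample is in Cy5 and a pool of RNA from all these kinds of cell is in Cy3. A further 8 arrays compare lymphoma lines 178119 and 28545, also ATMKO.CD3epsilonKO, after 100 nM PCI-32765 (ibrutinib, which blocks BTK, a kinase downstream of the B cell receptor) in Cy5 with the same line in DMSO, the vehicle, in Cy3, at 1, 3, 6 and 24 h. Each lymphoma line counts as 1 sample. The design text counts 1 biological and 2 technical repeats among the GC arrays without saying which is which. The p-values measure the spread between these samples, and for single drug times that between 2 lines, and dye and drug cannot be told apart, since no array has the dyes swapped.

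The ER is where membrane and secreted proteins, antibodies among them, are folded. When unfolded proteins build up there, the sensors IRE1 (gene Ern1), ATF6 and PERK (Eif2ak3) start the unfolded protein response: IRE1 splices the Xbp1 message, ATF6 is cut into a transcription factor, and PERK slows translation and favours ATF4. XBP1 and ATF6 raise chaperones, disulfide isomerases and the factors that send misfolded proteins out for degradation. In B cells this program is best known from differentiation into plasma cells.

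The promoters of these genes are the textbook place to see that control. The ER stress response element (ERSE) is a CCAAT box and a CCACG block held 9 bases apart, bound by NF-Y and by ATF6 or XBP1. RefSeq promoter windows (GRCm38.p6, 250 bases before to 50 after the gene's start) were matched by symbol for 10 of 10 members and searched on both strands. The ERSE letters, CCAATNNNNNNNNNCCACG, occurred in 39 of 32851 windows (0.119%) and in 4 of the 10 members, Hspa5, Hsp90b1, Pdia6 and Creld2. The related ERSE-II, ATTGGNCCACG, occurred in 12 windows (0.0365%), Herpud1 among them. The stretches that hold these matches are shown for 5 members, 4 with an ERSE and Herpud1 with an ERSE-II. Capitals mark the CCAAT and CCACG blocks of an ERSE, which read as ATTGG and CGTGG where it lies on the other strand; in Herpud1 they mark the ATTGG and CCACG of ERSE-II.
Hspa5 (chr2:34772005-34772063, + strand): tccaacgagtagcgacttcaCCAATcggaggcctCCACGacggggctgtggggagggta
Hsp90b1 (chr10:86705513-86705676, - strand): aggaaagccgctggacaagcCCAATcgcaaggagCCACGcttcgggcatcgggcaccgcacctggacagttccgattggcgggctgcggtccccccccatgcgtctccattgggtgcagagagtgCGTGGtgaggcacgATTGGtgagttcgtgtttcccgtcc
Pdia6 (chr12:17266471-17266529, + strand): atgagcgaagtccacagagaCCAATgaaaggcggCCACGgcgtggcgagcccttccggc
Herpud1 (chr8:94386357-94386407, + strand): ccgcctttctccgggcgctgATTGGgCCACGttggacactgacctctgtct
Creld2 (chr15:88819500-88819558, + strand): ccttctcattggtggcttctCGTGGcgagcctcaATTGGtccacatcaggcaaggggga

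The Hspa5 element begins 65 bases before the gene's start and that of Pdia6 begins 98 bases before it. Hsp90b1 holds 2 elements, 1 in each orientation, beginning 212 and 107 bases before the start. Pdia4, Sdf2l1, Dnajb9, Edem1 and Sel1l had neither ERSE nor ERSE-II within these windows, which says only that those letters are not there. All 10 windows held a CCAAT and a CCACG somewhere, against 37.4% and 32.8% of all windows. The core of a further XBP1 and ATF6 element, TGACGTG, stood in the Hspa5 window, 157 bases before the start, and in 2.01% of all windows.

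Array quality touched a few of the values below. The share of spots well above background in Cy5 was 45.6% to 60.7% on 29 arrays, 29.4% on the first GC array, 21.9% on the first array of line 1039 and 85.5% on the array of line 28545 at 24 h. Over all genes, the first GC array correlated at r = 0.06 and 0.07 with the other GC arrays, which correlated at 0.96 with each other. Tests that rest on GC cells were also run without it, and calls that changed are given below. GC values below are means that include this array unless said otherwise. Creld2 read -0.18 on it and -0.91 and -0.88 on the others, and Sel1l 0.06 against -0.54 and -0.44. Dnajb9 read 0.07 against -0.84 and -0.80, and Edem1 -0.07 against -0.47 and -0.17. The GC arrays spanned 0.05 for Hspa5 and 0.07 for Sdf2l1. Atm itself, the deleted gene, read -0.71 ± 0.30 (SD, n = 9) on the log2 scale in the lymphoma lines and 0.50 ± 0.23 (n = 3) in ATMWT samples on 1 of its 2 probes. All 8 B cell markers were above background on a share of at least 0.5 of the arrays of every class of sample. Most listed neutrophil, macrophage and T cell markers also met this on the lymphoma arrays, as given below.

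Hspa5 encodes BiP, the ER Hsp70 that binds unfolded chains and holds the sensors inactive. Its log2 ratio to the pool was -0.41 at the lowest (line 1013), 0.17 at the median and 1.02 at the highest (line 1007) of the 9 lymphoma lines. It was -0.32 in GC B cells, -0.20 in untreated ATMWT and 0.31 in untreated ATMKO splenic B cells. With anti-IgM, ATMKO cells were at -0.89 (3 h), 0.44 (6 h) and -0.89 (24 h) and ATMWT cells at 0.69 (6 h). The lymphoma lines overlapped every normal group, and the low values were those of anti-IgM at 3 and 24 h. The Hspa5 probe lies at chr2:34631913-34631972 of mm9, the build the scanner files give.

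Hsp90b1 encodes GRP94, the ER Hsp90, which folds Toll-like receptors and integrins. The lines ran from -0.56 (line 1010) through a median of 0.39 to 1.47 (line 1007). GC B cells were at -0.81, below all 9 lines, and the untreated samples at 0.21 (ATMWT) and 0.12 (ATMKO), inside the range of the lines. Of the anti-IgM samples, ATMKO cells read -0.64, 0.28 and -0.38 (3, 6 and 24 h) and ATMWT cells 0.55 (6 h). The GC value depends on which arrays are averaged: the first array read 0.31 and the others -1.38 and -1.37. The probe is at chr10:86153770-86153829 (mm9).

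Sdf2l1 encodes a partner of the ER Hsp40 co-chaperones that feed clients to BiP. The lines spanned -1.13 (line 1010), a median of 0.08 and 1.02 (line 1036). GC B cells were at -0.05, the untreated samples at -0.74 (ATMWT) and -0.81 (ATMKO), and the anti-IgM samples at -2.0, -0.37 and -1.08 (ATMKO at 3, 6 and 24 h) and -0.06 (ATMWT at 6 h). The lowest value of all 16 samples was the 3 h sample, and 8 of 9 lines were above both untreated samples. The probe is at chr16:17130426-17130485 (mm9).

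Dnajb9 encodes ERdj4, an ER Hsp40 that acts on BiP and on IRE1. Its mean in untreated cells was the highest of the 10: 1.55 in ATMKO and 0.67 in ATMWT cells, against -0.24 (line 1016), a median of 0.20 and 0.80 (line 1004) in the lymphoma lines. GC B cells were at -0.53. With anti-IgM, ATMKO cells were at 0.28, -0.25 and -0.87 (3, 6 and 24 h) and ATMWT cells at -0.44 (6 h), all below both untreated samples. A second, dimmer probe gave a smaller gap, with 0.57 and 0.03 in untreated ATMKO and ATMWT cells and a lymphoma median of 0.48. The probes are at chr12:45307313-45307372 and chr12:45308272-45308331 (mm9).

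Pdia4 and Pdia6 encode disulfide isomerases, ERp72 and P5, which form and reshuffle disulfide bonds. Pdia4 was -0.59 (line 1001), 0.14 (median) and 2.11 (line 1007) in the lymphoma lines, -1.21 in GC B cells, and 1.03 (ATMWT) and 0.78 (ATMKO) in untreated cells. Its anti-IgM values were -0.36, -0.14 and -0.15 (ATMKO at 3, 6 and 24 h) and 0.14 (ATMWT at 6 h), a range that lay below both untreated samples. Line 1007 held the highest Pdia4 value of the 16 samples and GC B cells the lowest, with -0.18 on the first GC array and -1.69 and -1.76 on the others.

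Pdia6 was 0.03 (line 1001), 0.46 (median) and 1.38 (line 1007) in the lines. GC B cells were at -0.74, without the first array, whose spot was flagged as an outlier, and untreated cells at -0.71 (ATMWT) and -0.80 (ATMKO). Every line was above these 3 samples. The anti-IgM samples spread widely, at -1.41, -0.11 and -1.17 (ATMKO at 3, 6 and 24 h) and 0.37 (ATMWT at 6 h). The Pdia4 probe is at chr6:47746516-47746575 and the Pdia6 probes at chr12:17291070-17291129 and chr12:17291323-17291382 (mm9).

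Creld2 encodes an ER protein with disulfide isomerase activity that is made under ER stress. Over the lines it was at -0.62 (line 1013), 0.59 (median) and 1.98 (line 1007), with an SD of 0.79, as was Pdia4; the other SDs were smaller. GC B cells were at -0.65 and untreated cells at -0.66 (ATMWT) and -0.72 (ATMKO), below all 9 lines. With anti-IgM it was -1.72, -0.81 and -1.49 (ATMKO at 3, 6 and 24 h) and -0.57 (ATMWT at 6 h). Its probe is printed 10 times on the array, and the SD over those spots had a median of 0.04 and reached 0.65 on the first GC array, and outside that array the spread over spots was far narrower than the spread over lines. The probe is at chr15:88656997-88657056 (mm9).

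Edem1, Sel1l and Herpud1 serve ER-associated degradation: EDEM1 trims mannose from misfolded glycoproteins, SEL1L anchors the HRD1 ubiquitin ligase, and HERPUD1 organises that complex. Edem1 was -0.39 (line 1016), 0.29 (median) and 1.22 (line 1007) in the lines, -0.24 in GC B cells, and -0.62 (ATMWT) and -0.29 (ATMKO) in untreated cells. The anti-IgM samples lay close together, at -0.85, -0.90 and -0.79 (ATMKO at 3, 6 and 24 h) and -0.93 (ATMWT at 6 h), below all 9 lines. The probe is at chr6:108808920-108808979 (mm9).

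Sel1l was 0.15 (line 1019), 0.52 (median) and 1.5 (line 1016) in the lines. All 7 normal samples were lower: -0.31 in GC B cells, -0.58 (ATMWT) and -0.74 (ATMKO) untreated, and -0.59, -0.48 and -0.44 (ATMKO at 3, 6 and 24 h) and -0.50 (ATMWT at 6 h) with anti-IgM. It was the member whose lines overlapped no normal group; all lines lay above all normal samples for 5.2% of all genes. The probe is at chr12:93044963-93045022 (mm9).

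Herpud1 was -0.19 (line 1016), 0.10 (median) and 0.52 (line 1039) in the lines, the narrowest range of the 10, with an SD of 0.25. GC B cells were at 0.32 and untreated cells at -0.18 (ATMWT) and 0.54 (ATMKO). The anti-IgM samples read 0.02, -0.87 and -0.80 (ATMKO at 3, 6 and 24 h) and -0.57 (ATMWT at 6 h). The low samples were the anti-IgM samples from 6 h on. The probe is at chr8:96919117-96919176 (mm9).

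**Figure D1:**
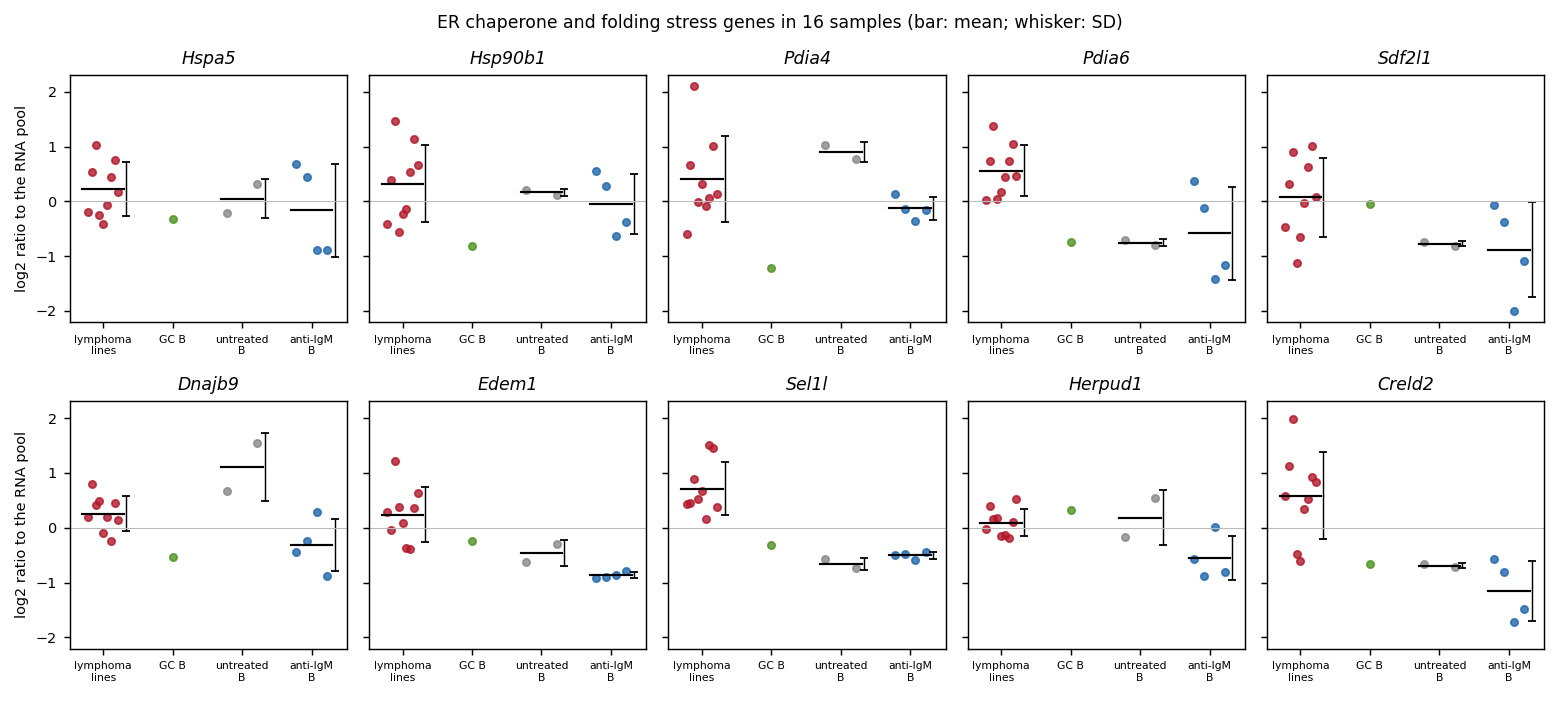
Log2 ratio to the RNA pool (vertical axis) of each member in the 16 samples, 1 point per sample, by class (lymphoma lines, GC B cells, untreated and anti-IgM splenic B cells), with the mean and SD of classes of more than 1 sample. Sel1l in the lymphoma lines lies above every normal sample, while Dnajb9 is highest in untreated cells.

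Lymphoma lines were first set against splenic B cells stimulated through the B cell receptor. Of the 10 members 6 were higher in the lymphomas and 0 lower, by limma with Benjamini-Hochberg adjustment over 21419 genes at 0.05; of all genes 46% passed in either direction and 21.2% were higher. Sel1l was higher by 1.22 ± 0.22 (SE) on the log2 scale (adjusted p = 0.000433), Edem1 by 1.11 ± 0.24 (0.00147) and Creld2 by 1.73 ± 0.39 (0.00217). Pdia6 was higher by 1.15 ± 0.32 (0.0082), Herpud1 by 0.65 ± 0.19 (0.01) and Dnajb9 by 0.58 ± 0.22 (0.0477). The other 4 members missed the threshold: Hspa5 0.39 ± 0.33 (0.36), Hsp90b1 0.37 ± 0.35 (0.423), Pdia4 0.53 ± 0.36 (0.248) and Sdf2l1 0.95 ± 0.41 (0.068), which passed without line 1010 (1.11) or without the ATMWT 6 h sample (1.23). All 9 lines were above every anti-IgM sample for 2 members, Edem1 and Sel1l, and for 11.2% of all genes. The members' median was 0.80 and that of all genes 0.00388. The second Pdia6 probe did not pass, at 0.64 ± 0.30 (0.0933), and that of Dnajb9 did, at 0.84 ± 0.20 (0.00371). The brighter Dnajb9 probe lost its call when lines 1001, 1004, 1007, 1010, 1019, 1036 or 1039 or any anti-IgM sample but the 3 h one was left out, at 0.39 (adjusted p = 0.182) without the 24 h sample. Processing ended it too: median centring (limma adjusted p = 0.141), the scanner's ratio (0.065), the matrix values (0.0654), no filter on dim probes (0.0689), another prior (0.0502) and scaling (0.0764). In all it was lost in 19 of 33 settings.

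The arrays of the pool comparison lie on 3 slides, each with lines and splenic samples. Slide 4 holds only further arrays of lines 1001, 1010 and 1039, untreated ATMKO, ATMKO 6 h and GC B cells, all also on slides 2 or 3. Its values are thus not from a separate set of samples. The anti-IgM samples were ATMWT 6 h and ATMKO 24 h on slide 2, ATMKO 3 h and 6 h on slide 3 and ATMKO 6 h on slide 4. Within slides 2, 3 and 4 in turn Sel1l was higher in lymphoma than in anti-IgM cells by 1.05, 1.27 and 1.08 (adjusted p = 0.00681, 0.0964 and 0.0444), Edem1 by 1.27, 0.89 and 1.47 (0.0429, 0.0582 and 0.0632) and Creld2 by 1.80, 1.68 and 1.16 (0.107, 0.0481 and 0.273). Pdia6 was at 1.32 and 0.34 within slides 3 and 4 and Herpud1 at 0.42 and 1.2, none of them past the threshold, and Dnajb9 at 1.15, 0.04 and 0.55. Against untreated cells Sel1l was at 1.16, 1.41 and 1.32 within the 3 slides (0.0173, 0.23 and 0.0262) and Dnajb9 at -0.17, -1.52 and -1.25 (0.734, 0.0583 and 0.0265).

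With slide as a term, 4 of the 8 members that could be tested were higher than in anti-IgM cells (Sel1l 1.19, Edem1 1.15, Creld2 1.70 and Dnajb9 0.58), where 47.0% of genes passed. Pdia6 and Herpud1 lacked a value on 1 array and dropped out of that fit, in which a sample with arrays on 2 slides counts on each.

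Against untreated splenic B cells 3 of 10 members passed, 2 higher and 1 lower, where 35.8% of all genes passed. Sel1l was higher by 1.37 ± 0.29 (limma, adjusted p = 0.00182) and Pdia6 by 1.32 ± 0.41 (0.0211). Dnajb9 was lower, by -0.85 ± 0.29 (0.0349), with 8 of 9 lines below both untreated samples. Creld2 (1.28 ± 0.51, adjusted p = 0.0633) and Edem1 (0.70 ± 0.31, 0.0914) missed the threshold, though Creld2 passed without line 1010 or line 1013 (1.41 and 1.43), and Pdia4 was at -0.50 ± 0.47 (0.441). All 9 lines were above both untreated samples for 3 members, Pdia6, Sel1l and Creld2, and for 19.8% of all genes. The Dnajb9 call rests on 1 sample and 1 probe. Without the untreated ATMKO sample the difference was -0.40 (adjusted p = 0.492), and on the second probe it was 0.06 ± 0.26 (0.884). The Dnajb9 call was also lost with the scanner's ratio (limma, adjusted p = 0.0644) and the matrix values (0.0648). It was lost as well with no filter on dim probes (0.0504) and with the mean of its probes (0.28). The Pdia6 call was lost without either untreated sample, at 1.37 (0.112) without the ATMWT sample and 1.27 (0.141) without the ATMKO sample.

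Against GC B cells, a normal group with 1 sample, 0 of 10 members passed, where 9.78% of all genes did. Of 21419 genes 5162 had an unadjusted p under 0.05. The members' median was 0.91 against -0.04 for all genes. With 1 GC sample, tests that involve it take their spread from the other groups, the lymphoma lines among them. Leaving out a line can thus move a test of GC against untreated cells without moving the difference. Pdia4 was at 1.62 ± 0.63 (limma, adjusted p = 0.13), Pdia6 at 1.30 ± 0.55 (0.162), Sel1l at 1.02 ± 0.39 (0.118) and Hsp90b1 at 1.13 ± 0.62 (0.291). All 9 lines were above the GC sample for 6 members, Hsp90b1, Pdia4, Pdia6, Dnajb9, Sel1l and Creld2, and for 21.3% of all genes. Without the first GC array Pdia4 passed, at 2.13 ± 0.63 (0.0362), and 14.9% of all genes did; it also passed without line 1007, at 1.4 ± 0.41 (0.0469). GC cells themselves, set against untreated splenic B cells, had 1 member called, Dnajb9, lower by -1.63 ± 0.46 (0.0315), where 11.6% of genes passed. The second Dnajb9 probe was not called, at -0.43 ± 0.41 (limma, adjusted p = 0.585). Without the first GC array Dnajb9 was at -1.93 ± 0.46 (0.00924), Pdia4 was lower too, at -2.63 ± 0.74 (0.0232), and 17.3% of genes passed. Without line 1007 Pdia4 was lower as well, at -2.12 ± 0.47 (0.0114), and without the untreated ATMKO sample Dnajb9 was not called, at -1.19 (0.193).

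**Figure D2:**
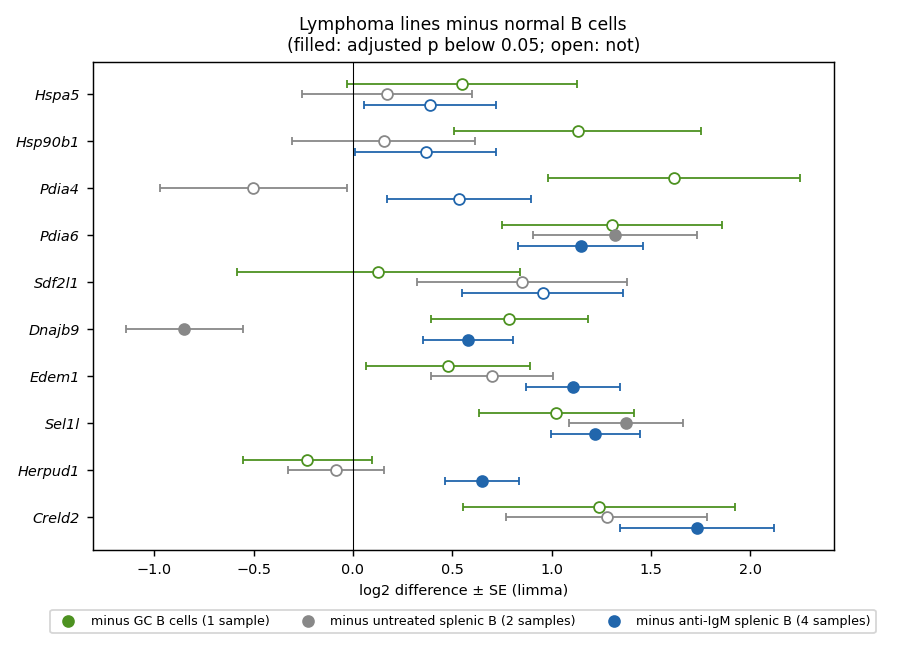
Lymphoma mean minus the mean of each normal group (horizontal axis, log2 difference ± SE from limma) for the 10 members; filled points have an adjusted p below 0.05. Filled points number 6 against anti-IgM cells, 3 against untreated cells and 0 against GC B cells.

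Markers of other spleen cells were also higher in the normal splenic samples than in the lymphomas. The median log2 ratio of 7 neutrophil markers was -5.55 to -3.22 in the lines, -3.76 in GC B cells, 1.33 to 1.43 in untreated and 0.44 to 1.62 in anti-IgM samples. For 9 macrophage markers it was -3.00 to -1.36, -1.99, 0.74 to 0.81 and -0.33 to 1.52, and for 8 T cell markers -2.72 to -0.96, -1.85, 0.50 to 0.77 and 0.08 to 0.42. NK cell markers (6) were at -1.63 to -0.93, -1.62, 1.06 to 1.41 and -0.34 to 0.96, erythroid markers (5) at -2.76 to -1.55, -2.05, 1.37 to 1.76 and -1.58 to 0.90, and stromal markers (4) at -3.00 to -1.51, -2.02, 0.83 to 1.04 and -0.76 to 0.79. Most of these markers were still above background on a share of at least 0.5 of the lymphoma arrays. They were 7 of 7 neutrophil, 8 of 9 macrophage and 7 of 8 T cell markers. Of the others, 4 of 5 erythroid, 3 of 6 NK cell and 2 of 6 listed stromal markers were. C1qa (macrophage), Klrd1 and Klrk1 (NK cell), Cd8a (T cell) and Vcam1, Fn1, Col1a1 and Col3a1 (stromal) were above background on 0 of 12 lymphoma arrays. The 8 plasma cell markers had medians of -0.36 to 1.12 in the lines, -0.78 in GC B cells, -0.15 to 0.52 in untreated and -0.41 to 0.49 in anti-IgM samples. Tnfrsf17, which encodes the plasma cell receptor BCMA, was above background on 0 of 12 lymphoma arrays. The other 7 went the other way: Prdm1, Irf4, Mzb1 and Slamf7 were above it on 12 of 12, Jchain and Ell2 on 11 and Sdc1 on 7. The part of these cells in the members' differences was not tested, and in bulk RNA fewer cells of a type and less RNA per cell cannot be told apart.

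The lymphoma lines differed among themselves in these genes. Line 1007 had the highest value of the 9 lines for 6 of 10 members and line 1036 was among the top 2 for 6. The median over the 10 members was 1.12 in line 1007, 0.97 in line 1036, 0.49 in lines 1004 and 1016, 0.42 in line 1039, 0.01 in lines 1010 and 1001, -0.04 in line 1019 and -0.12 in line 1013. Neighbours in that order, from 1004 to 1039 and from 1010 to 1013, lie closer together than 0.19. The median range of a member over repeats of 1 sample was 0.09 to 0.19 for every repeated sample but the GC cells (0.50, and 0.04 without the first array). The SD over lines had a median of 0.50 for the members and 0.24 for all genes tested, and 10 of 10 members were above the latter.

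Members did not share 1 order of lines. Line 1016 held the highest Sel1l (1.5) and the lowest Edem1 (-0.39), Dnajb9 (-0.24) and Herpud1 (-0.19). Line 1010 held the lowest Sdf2l1 (-1.13) and Hsp90b1 (-0.56) while its Dnajb9 (0.50) and Sel1l (0.52) were above 0. Over the 16 samples, Creld2 and Pdia6 followed the mean of the other members most closely (Pearson r = 0.91 and 0.87) and Dnajb9 and Herpud1 least (0.30 and 0.38). These correlations describe samples that share the pool channel.

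**Figure D3:**
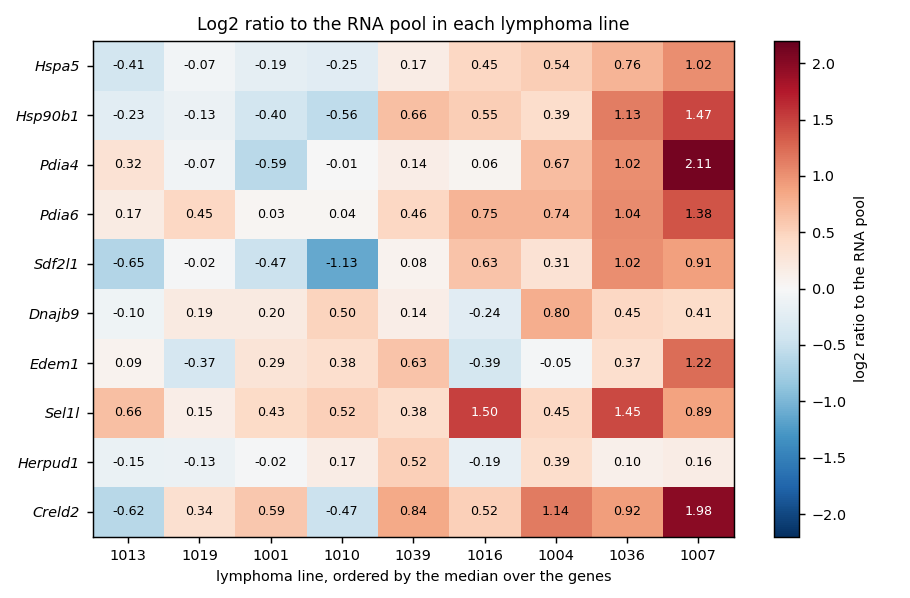
Log2 ratio to the RNA pool (colour) of the 10 members (rows) in the 9 lymphoma lines (columns). Line 1007 is highest for 6 members, and the Sel1l maximum, 1.5, is in line 1016.

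Stimulation with anti-IgM was tested over all times with genotype as a term, in 6 samples. It called 0 of 10 members and 0% of 22302 genes by limma, with 1686 genes at an unadjusted p under 0.05. The times went in different directions. At 3 h, 9 of 10 members were below untreated ATMKO cells, with a median difference of -0.88 against -0.10 for all genes; 4 members were more than 1 log2 unit lower, as were 7.29% of all genes. Those were Hspa5 (-1.19), Sdf2l1 (-1.19), Dnajb9 (-1.27) and Pdia4 (-1.14); Creld2 was at -1.0. At 6 h, 5 members were above and 5 below, with a median of 0.02, and at 24 h 9 were below again, with a median of -0.63. Sel1l was the member above untreated cells at 24 h, by 0.29.

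Members differed in their course over these single samples. Hspa5 was -1.19, 0.13 and -1.20 from untreated at 3, 6 and 24 h, Sdf2l1 -1.19, 0.43 and -0.28, and Pdia6 -0.61, 0.69 and -0.37, a dip, a return and a second dip. Dnajb9 was at -1.27, -1.80 and -2.43, lower at each later time, and Pdia4 was below untreated at all 3, at -1.14, -0.92 and -0.93. Herpud1 was at -0.52, -1.41 and -1.34. The ATMWT pair at 6 h gave 1.08 for Pdia6, 0.89 for Hspa5, 0.69 for Sdf2l1, 0.34 for Hsp90b1 and -1.10 for Dnajb9, each in the direction of the ATMKO sample of that time. Single times have 1 sample per genotype and no test.

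When the test was confined to the 6 h and untreated samples of both genotypes (4 samples), 4 members passed, where 28.4% of 22507 genes did. Pdia6 (0.88 ± 0.14, limma adjusted p = 0.0118) and Sdf2l1 (0.56 ± 0.13, 0.029) were higher, and Pdia4 (-0.91 ± 0.11, 0.00655) and Dnajb9 (-1.45 ± 0.19, 0.00746) lower. Hspa5 (0.51 ± 0.20, 0.127) and Herpud1 (-0.90 ± 0.25, 0.0534) missed the threshold. That fit leaves 1 residual degree of freedom per gene. ATMKO and ATMWT splenic B cells were compared in the fit of 6 samples: 0 of 10 members and 0% of genes passed, with 128 of 22302 genes at an unadjusted p under 0.05. The members' differences ran from -0.80 ± 0.48 (Pdia6) to 0.45 ± 0.39 (Dnajb9), each with an adjusted p of 1.00.

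**Figure D4:**
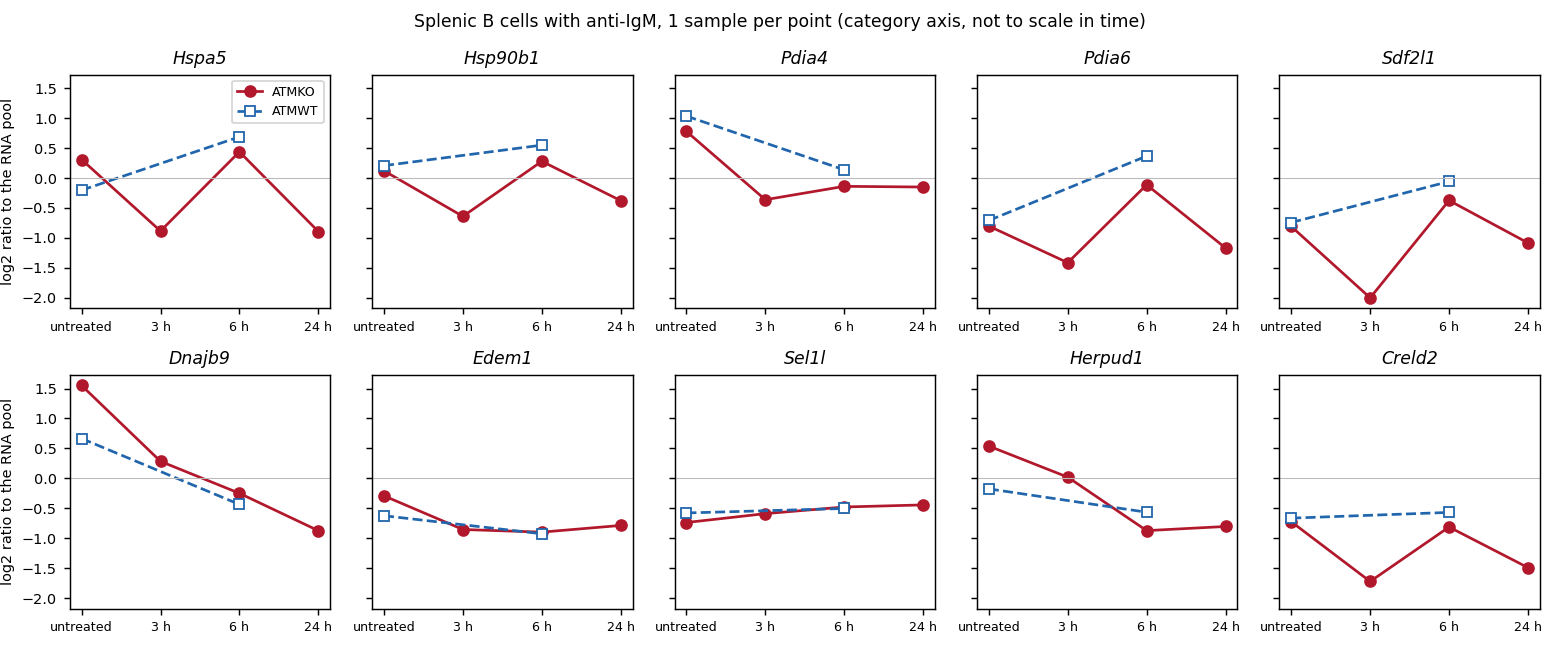
Log2 ratio to the RNA pool (vertical axis) of each member in splenic B cells, untreated and at 3, 6 and 24 h of anti-IgM (horizontal axis, categories), 1 sample per point, ATMKO filled and ATMWT open. Hspa5, Hsp90b1, Pdia6, Sdf2l1 and Creld2 are low at 3 h and 24 h and higher at 6 h, while Dnajb9 in ATMKO cells goes from 1.55 to -0.87.

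In the lymphoma lines given PCI-32765, Herpud1, Edem1 and Sel1l were lower than in DMSO relative to genes of like brightness. Averaged over the 4 times, 3 of 8 tested members were lower and 1 higher, where 32.4% of 17909 genes passed in either direction. That test counts the 8 arrays as separate samples, though they are 4 times of each of 2 lines. It thus has fewer independent samples than it counts. Herpud1 was lower by -0.39 ± 0.05 (limma, adjusted p = 0.000236), Edem1 by -0.34 ± 0.07 (0.00508) and Sel1l by -0.25 ± 0.04 (0.0019), and Creld2 was higher by 0.22 ± 0.05 (0.00783). The Creld2 call was lost with the scanner's own log ratio and with the matrix values, at 0.048 for each (adjusted p = 0.499 and 0.502). With arrays centred on their median in place of loess, the 3 lower genes were called higher, Herpud1 at 0.26, Edem1 at 0.40 and Sel1l at 0.31. Of 12 other ER-associated degradation genes 3 were higher and 2 lower over the mean of the times, against 16.8% and 15.7% of all genes. Their median was 0.00474. Hspa5 and Sdf2l1 were not tested, since their only spot was flagged as an outlier on the array of line 178119 at 1 h.

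Herpud1 was below 0 on 8 of 8 arrays: -0.22, -0.33, -0.25 and -0.72 at 1, 3, 6 and 24 h in line 178119, and -0.10, -0.26, -0.39 and -0.85 in line 28545. Both lines were lowest at 24 h. Sel1l was also below 0 on 8 of 8, at -0.05, -0.43, -0.15 and -0.32 in line 178119 and -0.01, -0.46, -0.27 and -0.34 in line 28545, with its lowest values at 3 h. Edem1 was at 0.31, -0.01, -1.07 and -0.42 in line 178119 and -0.01, -0.42, -0.57 and -0.56 in line 28545, so that the 2 lines were closest in size at 24 h.

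Creld2 went the other way, at 0.05, 0.36, 0.70 and -0.04 in line 178119 and -0.10, 0.31, 0.42 and 0.09 in line 28545, a rise that was gone at 24 h in both lines. Hsp90b1 stood above 0 or near it until 24 h, at 0.32, 0.08, 0.18 and -1.01 in line 178119 and 0.10, 0.24, -0.12 and -0.52 in line 28545. Hspa5 read 0.27, 0.24 and -0.52 at 3, 6 and 24 h in line 178119 and 0.14, 0.24, -0.05 and 0.08 at the 4 times in line 28545. Sdf2l1 was at 0.20, -0.28 and -0.76 at 3, 6 and 24 h in line 178119, and at 0.19, -0.06, -0.28 and -0.35 in line 28545.

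Pdia4 split the lines at 24 h, with 0.35 in line 178119 and -0.58 in line 28545. Dnajb9 stayed within -0.36 and 0.19 on all 8 arrays. The brightest Pdia6 probe read -1.12 and -0.95 at 1 and 24 h in line 178119, where the second read -0.15 and -0.44; the bright probe was saturated on the first of these arrays. No Pdia6 probe passed over the mean of the times (-0.27 ± 0.11, adjusted p = 0.0854, and -0.01 ± 0.06, 0.958).

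By time, 0 of 8 members passed at 1 h (0.101% of genes, with 2809 genes at an unadjusted p under 0.05), 1 at 3 h (7.21%), 3 at 6 h (24.3%) and 4 at 24 h (23.1%, of which 12% of all genes lower). The 3 h call was Sel1l, at -0.45 ± 0.09 (limma, adjusted p = 0.0166); without the 3 h array of line 178119 or 28545 its adjusted p was 0.257 or 0.227. At 6 h Edem1 (-0.82 ± 0.14, 0.00329) and Herpud1 (-0.32 ± 0.09, 0.0329) were lower and Creld2 (0.56 ± 0.10, 0.00389) higher; without the 6 h array of line 178119 all 3 missed the threshold (Edem1 -0.57, Creld2 0.42, Herpud1 -0.39). The Herpud1 call was also lost without the 6 h array of line 28545 (-0.25, adjusted p = 0.239), without either 3 h array (0.0614 for each), with cell line as a block (0.0509) and with a normexp offset of 16 (0.0552). At 24 h Herpud1 (-0.79 ± 0.09, 0.00057), Hsp90b1 (-0.77 ± 0.13, 0.00346), Sel1l (-0.33 ± 0.09, 0.0261) and Edem1 (-0.49 ± 0.14, 0.0358) were lower. Without the 24 h array of line 178119, Herpud1 alone of these 4 remained lower, and Pdia4 (-0.58), not called otherwise, was; without that of line 28545 Herpud1 and Hsp90b1 remained. With flagged spots kept, Sdf2l1 was lower at 24 h too, at -0.55 ± 0.12 (0.00951), and Hspa5 was not called, at -0.22 ± 0.17 (0.391).

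The effect at 24 h was set against that at 1 h in the same fit, without pairing the times of a line. Hsp90b1 (-0.98 ± 0.19, limma adjusted p = 0.0165) and Herpud1 (-0.63 ± 0.13, 0.0233) were lower at 24 h than at 1 h, where 7.09% of genes differed. Both calls were lost without the 1 h array of either line (Hsp90b1 -0.87 and -1.09, Herpud1 -0.69 and -0.57) and without the 24 h array of line 178119 (-0.73 and -0.70). The Herpud1 call was also lost without either 3 h array (adjusted p = 0.0509 for each) or without the 24 h array of line 28545 (-0.56). Lines 178119 and 28545 differed in 0 of 8 members and 0% of genes (643 at an unadjusted p under 0.05), with member differences of -0.18 to 0.39.

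**Figure D5:**
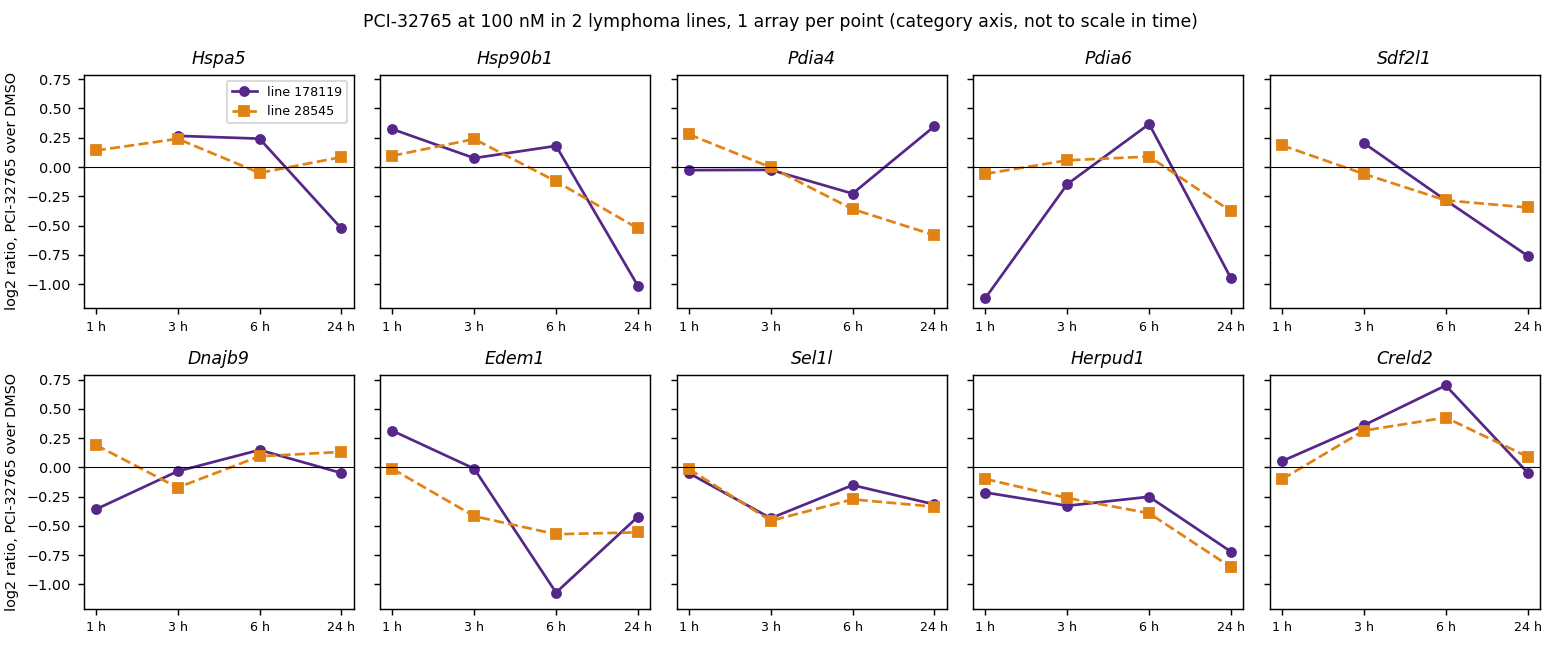
Log2 ratio of PCI-32765 over DMSO (vertical axis) of each member at 1, 3, 6 and 24 h (horizontal axis, categories) in lines 178119 and 28545, 1 array per point. Herpud1 and Sel1l are below 0 on all 8 arrays, and Hsp90b1 drops to -1.01 and -0.52 at 24 h.

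The signs of the drug values depend on how the dyes are balanced. Loess, used above, removes the part of a ratio that goes with brightness. With each array centred on its median instead, 8 of 8 members were called higher over the mean of the times, and 73.1% of all genes passed, 99.1% of them higher. By time it called 7 of 8 members higher at 1 h and at 3 h, 3 at 6 h (Creld2 1.19, Hsp90b1 0.64 and Pdia6 0.91) and 1 at 24 h. These counts by time stand without the share of all genes and are not read as a result about the members. Over the mean of the times, genes of like brightness to the members had medians of 0.55 (Pdia4) to 0.97 (Pdia6) on that scale. Edem1 (-0.31, limma adjusted p = 0.397) and Herpud1 (0.086, 0.829), lower at 6 h after loess, were not called. On that scale the genes of like brightness to Herpud1 had a median of 0.61, and Herpud1 itself was at 0.26. Relative to genes of like brightness the median-centred values were -0.35 for Herpud1 and Pdia6, -0.27 for Edem1, -0.25 for Sel1l and 0.21 for Creld2. The drug differences given above are thus relative to genes of like brightness, and their absolute direction is not given by these arrays.

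Of 11 sensors and factors of the unfolded protein response, 3 were higher and 0 lower in lymphoma than in GC B cells (4.42% of all genes higher), 3 higher and 1 lower than in untreated cells (14.7%), and 4 higher and 1 lower than in anti-IgM cells (21.2%). Xbp1, Ern1 and Atf6 were the genes among them higher in all 3 comparisons. Xbp1 was at -0.12 (line 1013) to 2.01 (line 1007) in the lines, -0.64 in GC B cells, -0.77 (ATMWT) and -0.82 (ATMKO) untreated and -1.24 to -0.70 with anti-IgM, with no overlap between the lines and the normal samples, all lines being above. It was higher in the lines by 1.69 ± 0.46 than in GC B cells (limma, adjusted p = 0.0328), by 1.84 ± 0.34 than in untreated (0.000733) and by 1.99 ± 0.26 than in anti-IgM cells (2.77e-05). Ern1 was higher by 2.63 ± 0.46 (0.00271), 1.71 ± 0.34 (0.0012) and 1.71 ± 0.26 (9.58e-05), and Atf6 by 1.5 ± 0.31 (0.00682), 1.25 ± 0.23 (0.000576) and 1.26 ± 0.17 (4.06e-05). Eif2ak3, Atf4 and Ddit3, of the PERK arm, were called in none of these 3 comparisons; against anti-IgM cells they were at -0.03 ± 0.43 (0.964), 0.49 ± 0.25 (0.127) and 0.85 ± 0.38 (0.0795). The array probes measure the Xbp1 message in total, not its splicing.

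With PCI-32765, Ern1 was lower at 24 h, by -0.67 ± 0.11 (limma, adjusted p = 0.00257), at -0.70 in line 178119 and -0.64 in line 28545. Eif2ak3 was higher over the mean of the times, by 0.27 ± 0.05 (0.00278). Ern1 was lower over that mean too, by -0.30 ± 0.05 (0.00227). Atf6 and Ddit3 were not called over that mean, at 0.13 ± 0.06 (0.11) and -0.10 ± 0.05 (0.158). At 6 h Ddit3 was lower, by -0.32 ± 0.10 (limma, adjusted p = 0.0435), and Eif2ak3 higher, by 0.43 ± 0.10 (0.0124). Xbp1 and Atf4 had no test on the drug arrays.

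Other genes of the same machinery were counted in lists. Of 31 translocon and early secretory genes, 19 were higher and 1 lower in lymphoma than in anti-IgM cells, with a median of 0.84; Sec11c, of the signal peptidase, was higher by 3.91 and Lman1, a cargo receptor, by 3.74. Of 25 other ER folding genes 11 were higher and 0 lower, with a median of 0.47, among them Erp44 (2.52), Prdx4 (2.02) and Manf (1.38). Of 16 other degradation genes 8 were higher and 2 lower, with a median of 0.27, led by Derl3 (3.54), a derlin of the retrotranslocation channel, and Ube2j1 (2.03), its ubiquitin-conjugating enzyme. Heat shock genes of the cytosol and mitochondria, the matching machinery outside the ER, had 1 higher and 3 lower of 15, with a median of -0.38. All of these stand beside 21.2% of all genes higher and 24.8% lower.

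At 24 h of PCI-32765, 11.1% of all genes were higher and 12% lower. Of 21 translocon and early secretory genes 0 were higher and 8 lower, with a median of -0.21 against -0.00824 for all genes. Sec24d, of the COPII coat, was at -0.75. Of 20 other folding genes 1 was higher, the oxidase Ero1b (1.26), and 6 were lower, led by Hspa13 (-0.66). Of 12 other degradation genes 2 were higher, Edem3 (0.80) and Syvn1 (0.74), which encodes the ligase HRD1 that SEL1L anchors, and 1 lower, Faf2 (-0.43). Edem1 and Edem3, paralogues, thus lay on opposite sides at 24 h (-0.49 and 0.80). The ATF4 targets had 0 higher and 7 lower of 9, with Trib3 at -2.66, Chac1 at -2.43 and Asns at -1.83, larger differences than any member's.

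Genes that carry the ERSE letters but are not members were looked up as well. Of 33 such symbols 15 were tested in the pool fit, and 4 were higher and 2 lower in lymphoma than in anti-IgM cells, against 21.2% and 24.8% of all genes. Derl3 (3.54) and Dnajc3 (1.26) were among the higher ones; Calr (-0.13 ± 0.37, limma adjusted p = 0.794) and Canx (0.18 ± 0.26, 0.602), the lectin chaperones, were not called. The share of them that was higher is near that of all genes. With PCI-32765 at 6 h, 4 of 12 were higher, Ero1b, Dnajc3, Syvn1 and Xlr3b, and 1 was lower, Calr (-0.61), against 12% and 12.3% of all genes.

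The 8 other genes whose log2 ratios followed the members' mean most closely over the 16 samples were Ddost (Pearson r = 0.957), Magt1 (0.949), Ssr2 (0.943), Qpctl (0.927), Sec13 (0.910), Gm9963 (0.907), Rexo2 (0.906) and 4933417G07Rik (0.905). Ddost and Magt1 encode subunits of oligosaccharyltransferase, Ssr2 a subunit of the translocon-associated complex and Sec13 a COPII coat protein. These are descriptions over samples that share the pool and fall into classes.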

How the data were processed

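Agilent two-colour arrays of 62976 spots were used. Per the submitters' processing notes the authors used Agilent Feature Extraction 9.1 and limma; the file headers name Feature Extraction 10.1.1.1. The deposited scanner files give intensity (mean and background median signals), and the deposited log10 ratios of the series matrix equal the scanner's log ratio of Cy5 over Cy3 within 0.0005, uncentred, with column medians of -0.094 to 0.058. The members and gene lists were chosen with earlier results of these data known.

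From the intensities, limma 3.58.1 (R 4.3.3) corrected background (normexp, offset 50) and normalized within arrays (loess; control spots and outlier flags at weight 0, outliers then left out). Spots were averaged per probe and the brightest probe per gene was kept. A gene had to be well above background in either channel on a share of 0.5 of a fit's arrays. Technical repeats were averaged: 16 pool samples and 8 drug arrays. Models were lmFit and eBayes, with Benjamini-Hochberg adjustment at 0.05, and 12, 3 and 4 residual degrees of freedom in the fits of pool samples, splenic B cells and drug arrays. Genes named beyond the members were up to 3 per list with the largest called difference, the 8 nearest in correlation, and 6 unfolded protein response genes; those with an ERSE were chosen after their values were seen. The calls were tested on simulated data. Precision is limited by how few arrays there are. Of 55681 probes, 27235 matched a RefSeq accession, which updated 2838 names; a mm9 annotation was not used here. Promoters come from RefSeq, GRCm38.p6. Alternatives were another offset, centring, the scanner's ratio, the matrix, filters, probe means, priors, scaling, slides and single samples left out.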

Additional observations from a re-analysis of the deposited data

Results flagged for a closer look

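The PCI-32765 effect on Hsp90b1 was lower at 24 h than at 1 h by -0.98 on the log2 scale, and that on Herpud1 by -0.63, both by a tested difference between times (limma, adjusted p = 0.0165 and 0.0233). Other pairs of times stood out because both lines moved one way at 1 time and the opposite way at the other, and these differences were not tested: Hsp90b1 at 24 h minus 3 h (-0.93), Pdia6 at 6 h minus 1 h (0.82) and 24 h minus 6 h (-0.89), and Dnajb9 at 6 h minus 3 h (0.22). The Pdia6 pairs rest on the brightest probe, which was saturated on the array of line 178119 at 1 h.

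In ATMKO splenic B cells the anti-IgM difference from untreated cells had opposite signs at neighbouring times for 4 members, with 1 sample per time and no test. From 3 h to 6 h it moved by 1.32 for Hspa5, 0.92 for Hsp90b1, 1.30 for Pdia6 and 1.63 for Sdf2l1, and from 6 h to 24 h by -1.33, -0.66, -1.06 and -0.71. Creld2 at 6 h was below untreated cells in ATMKO and above them in ATMWT, a difference of -0.18 that was not tested. No sample of the lymphoma or anti-IgM classes stood apart from its class for any member by Dixon's test in groups of 4 to 10 samples.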

How the results depend on the processing

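Counts of members called are given in this section without the share of all genes in each setting. They show only how the members' calls moved. Against anti-IgM cells 6 were called, and 3 with the first repeat of each sample and within slide 2, and 1 within slide 3 and within slide 4. Pdia6 and Herpud1 could not be tested with first repeats or in slide 2, where Dnajb9 and Creld2 respectively lost the call. Dnajb9 also lost it under median centring, the scanner's ratio, the matrix values, no filter on dim probes, another prior and scaling. Against untreated cells 3 became 1 within slide 2 and 0 within slide 3. In that comparison Dnajb9 also lost its call with the scanner's ratio, the matrix values, no filter on dim probes and the mean of probes. For GC cells against untreated cells, 1 became 0 under median centring, the scanner's ratio, the matrix values, the mean of probes, first repeats and slide 2, and 2 without the first GC array. For lymphoma against GC cells 0 became 1 without that array. For anti-IgM 0 became 4 with 6 h and untreated samples alone. Leaving out 1 sample gave 5 to 6 members against anti-IgM cells, 1 to 4 against untreated cells, 0 to 1 against GC cells and 0 to 2 for GC against untreated cells, with 2 and 1 for the GC comparisons without line 1007; anti-IgM and genotype stayed at 0. Of the drug results, leaving out 1 array gave 4 to 5 over the mean of times, 0 at 1 h, 0 to 1 at 3 h, 0 to 3 at 6 h, 2 to 6 at 24 h, 0 to 2 for 24 h minus 1 h and 0 between lines. The 3 h call was lost without either 3 h array and the 6 h calls without that of line 178119.

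For the drug, the scanner's ratio and the matrix values gave 2 at 24 h, 1 at 6 h, 0 at 3 h and 0 for 24 h minus 1 h. Median centring gave 7 at 1 h, 7 at 3 h, 1 at 24 h and 8 over the mean of times, all higher. It reversed signs: at 1 h Creld2 (1.02), Sel1l (0.73), Herpud1 (0.72) and Dnajb9 (0.69); at 3 h Edem1 (0.78), Pdia4 (0.74), Sel1l (0.34), Pdia6 (1.13), Herpud1 (0.60) and Dnajb9 (0.66); at 6 h Herpud1 (0.086); at 24 h Edem1 (0.028) and Sel1l (0.074); over the mean Hsp90b1 (0.70), Edem1 (0.40), Pdia4 (0.47), Sel1l (0.31), Pdia6 (0.63), Herpud1 (0.26) and Dnajb9 (0.56). The cause was not tested. Within-slide fits and left-out samples have fewer samples. Aquantile leaves log ratios as they are and moved no call. Scale normalization and keeping outlier spots were chosen after seeing the data.

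No paired analysis was possible because the repeat numbers in the labels mark technical repeats of 1 sample or number different lines and samples. This applies only to the arrays hybridised against the RNA pool, where technical repeats were averaged. On the drug arrays the times of a line can be paired, which was done in a fit with cell line as a block. That fit gave 4 over the mean of times, 0 at 1 h, 1 at 3 h and 2 at 6 h (Herpud1 lost). It gave 5 at 24 h (Pdia6 gained) and 2 for 24 h minus 1 h.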
